A study of Mus musculus with 4 samples.

Results

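SINEs, the short interspersed elements of the mouse genome, were followed in testicular RNA of Nef-sp mutant mice. Every repeat row whose class is SINE was taken from the count table, on the sense strand of the element and on the antisense strand. This gave 40 sense features and 39 antisense features, 79 of the 25745 features in the table. They stand for 40 elements in 7 families, and 39 of the elements were counted on both strands. The sense reads and the antisense reads were each part of 699 repeat features.

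Total RNA came from the testis of adult mice at postnatal day 60 on the C57Bl/6J background. There were 2 Nef-sp-/- libraries and 2 Nef-sp+/- libraries, prepared with strand information after removal of ribosomal RNA and each sequenced for 50 cycles. The mutant allele is a 23 bp out-of-frame deletion made with a Cas9 nickase and a pair of guide RNAs, and the controls carried 1 copy of it too. NEF-sp is a nuclease with an exonuclease domain that is expressed in the testis, and the comparison asked whether any class of testicular RNA depends on it. The labels do not state that the libraries of a genotype came from separate animals, so p-values measure the spread between these libraries, which may be technical. Libraries held between 20659865 and 34442517 counted reads.

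SINEs are short retroelements that encode no protein and that are copied by the machinery of LINE elements. Their own transcription starts from an internal promoter of RNA polymerase III, made of an A box and a B box. Rodent B1 elements, which the annotation places in the Alu family, descend from 7SL RNA, the RNA of the signal recognition particle. B2 and ID elements descend from tRNA-like genes, B4 elements join ID and B1 sequence, and MIR elements are older tRNA-derived SINEs shared among mammals. Because copies lie in introns and untranslated regions, reads of a SINE on either strand can also come from RNA of a host gene, and counts per element cannot tell these sources apart. In the germline, SINE copies are under DNA methylation and histone methylation, and B2 RNA and B1 RNA are known to be abundant in some cell types and after stress.

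The ID family has a stable RNA gene, Bc1, whose sequence is shown because it carries both promoter boxes and the ID sequence as it is transcribed. In mm9 it lies on the plus strand at chr7:152100375-152100528. It is 154 bases long, with its length and its start taken from RefSeq (GRCm38.p6). The GENCODE annotation of mm9 lists there only the single exon of AC161763.1, a gene of the miRNA type on the same strand, from 152100376 to 152100446. Capitals mark the matches to the A box and to the B box (motifs of 11 and 10 letters), and all other bases are in lower case.
Bc1: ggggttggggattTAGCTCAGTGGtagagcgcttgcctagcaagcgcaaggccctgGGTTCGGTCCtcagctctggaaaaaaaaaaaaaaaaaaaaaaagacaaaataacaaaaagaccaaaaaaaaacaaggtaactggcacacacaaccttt
The A box match spans bases 14 to 24 and the B box match bases 57 to 66. On either strand, 22.4% of 32851 mouse promoter windows of 300 bases held the A box letters and 0.481% held the B box letters, so that the B box is the rarer match. The motifs do not overlap in Bc1. Consensus sequences of the SINE elements were not used here.

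Bc1 also shows how far the sequence of 1 transcript recurs in the genome. Of its 105 windows of 50 bases, the number of cycles sequenced, 60 matched more than 1 place on the assembled chromosomes of mm9 without a mismatch, and 45 matched only Bc1 itself. The 50-base window with the most places, 39, started at base 6. All repeated 50-base windows started within the first 60 bases, in the ID part and the A-rich stretch that follows it. Of 130 windows of 25 bases, 110 matched more than 1 place, and the highest number, 15147, was reached by the window that starts at base 77, which is nearly all A. A read from the start of Bc1 therefore matches several places. How such reads were assigned to features is not given in the sources used here.

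**Figure D1:**
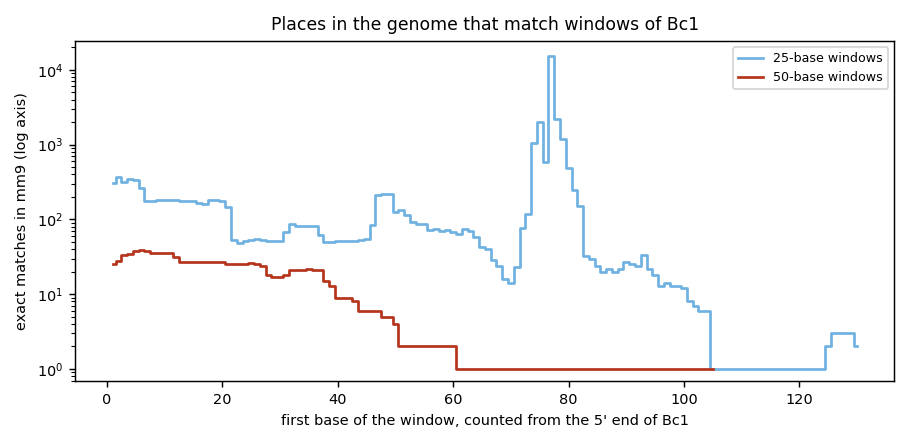
Number of places in mm9 that match each 25-base window (blue) and each 50-base window (red) of Bc1 without a mismatch, on a log axis, against the first base of the window counted from the 5′ end. The red line is at 1 from base 61 on, whereas windows in the ID part match up to 39 places.

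In the table, the row of BC1 RNA has its own class and is not 1 of the 40 elements. Its normalized sense counts were 1782 and 1799 in Nef-sp+/- against 1743 and 1542 in Nef-sp-/-. A normalized count is the read count scaled by TMM to the mean size of the 4 libraries. Both Nef-sp-/- libraries were lower, with a log2 fold change (Nef-sp-/- divided by Nef-sp+/-) of -0.13, and the adjusted p of the edgeR quasi-likelihood test was 0.998. 

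The level of the targeted gene matched the genotype labels in all 4 libraries. The exon reads of Nef-sp (2610020H08Rik) were 1843 and 1693 normalized counts in Nef-sp+/- against 407 and 497 in Nef-sp-/-, with an adjusted p of 4.1e-06 in the edgeR quasi-likelihood test. All 12 germ cell markers had reads, although Zbtb16, of spermatogonia, was below 0.1 RPM (reads scaled to a common library total) in every library. The summed level of the 12 was between 14205 and 16921 RPM, of which Prm1, Prm2, Tnp1 and Tnp2, genes of late spermatids, made up 12992 to 15838 RPM. For 7 of 8 Sertoli and Leydig cell markers that were found, the sum was 1279 and 1259 RPM in Nef-sp+/- against 1223 and 1158 in Nef-sp-/-. For 7 of 9 markers of macrophages, blood, peritubular muscle and endothelium it was 57.8 and 56.0 against 48.5 and 52.6 RPM. Both of these sums were lower in each Nef-sp-/- library. The Sertoli and Leydig cell markers did not share 1 direction. Cyp17a1 had 446 and 421 RPM in the controls against 381 and 325 RPM in the mutants. The log2 fold changes were -0.27 for Cyp17a1, -0.24 for Sox9 and -0.11 for Wt1. They were above 0 for Insl3 (0.18), Hsd3b1 (0.15), Star (0.08) and Clu (0.01). Of the 26 markers found, 23 passed the expression filter and 0 had an adjusted p below 0.05 in the edgeR test, and their part in the SINE levels was not tested. In RNA of a whole tissue, fewer cells of a type and less RNA per cell cannot be told apart.

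SINE reads were a small share of sense repeat reads and a larger one of antisense repeat reads. They numbered 146488 and 225969 sense reads in Nef-sp+/- against 139290 and 145467 in Nef-sp-/-. On the antisense strand they numbered 100643 and 151783 in Nef-sp+/- against 94074 and 103315 in Nef-sp-/-. The second Nef-sp+/- library, the deepest of the 4, had the most on both strands.

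Of all sense repeat reads, SINEs made up 4.77% and 4.52% in Nef-sp+/- against 4.65% and 4.78% in Nef-sp-/-. The genotypes overlapped. The means were 4.65% ± 0.174 and 4.72% ± 0.0903 (SD, n = 2 each), with p = 0.667 in a two-sided exact permutation test over libraries, whose smallest possible p is 0.33 in this design. 7SL RNA alone, the ancestor of B1, took between 34.2% and 35.8% of the sense repeat reads. Without the rows of structural RNA and satellites, SINEs made up 25.5% and 25.5% in Nef-sp+/- against 25.4% and 24.4% in Nef-sp-/-, both lower than the controls, so that the difference changed from 0.0730 to -0.653 percentage points.

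Of the antisense repeat reads, SINEs made up 22.8% and 23.5% in Nef-sp+/- against 22.0% and 21.2% in Nef-sp-/-. Both Nef-sp-/- libraries were lower than both Nef-sp+/- libraries. The means were 23.2% ± 0.450 and 21.6% ± 0.576 (SD, n = 2 each), a difference of -1.60 percentage points with p = 0.33 in the exact permutation test, or 0.667 when adjusted over the 3 shares tested by the Benjamini-Hochberg method. The genotypes overlapped once structural RNA and satellite rows were left out, at means of 25.2% and 24.5%. As a share of all reads, antisense SINE reads were 0.464% in Nef-sp+/- and 0.473% in Nef-sp-/-, and here too the libraries overlapped. With neither of these denominators did the share separate the genotypes.

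**Figure D2:**
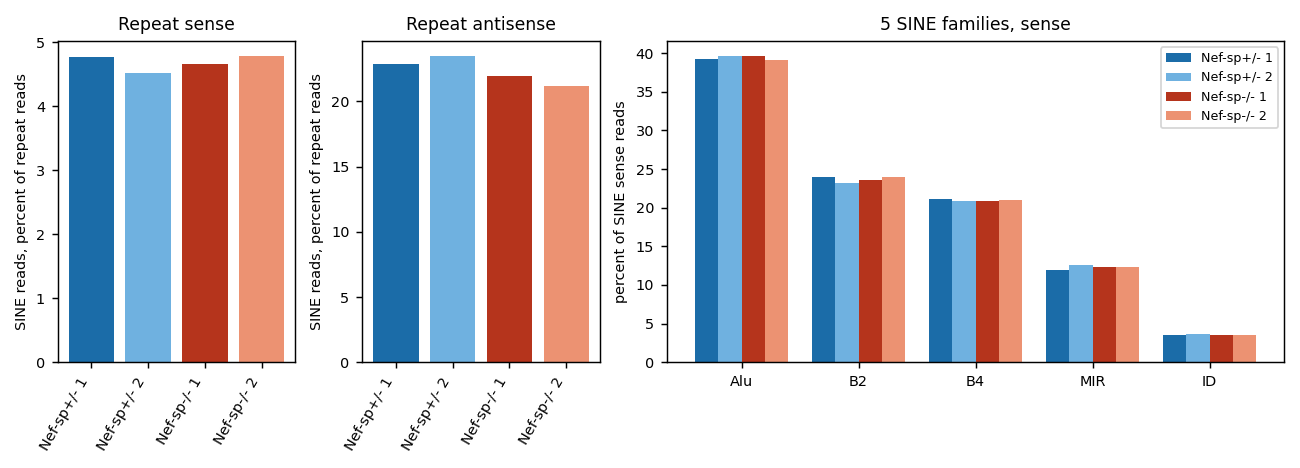
SINE reads as a percent of all repeat reads on each strand (left and middle) and the percent of sense SINE reads in each of the 5 families with more than 1% of them (right), for each of the 4 libraries. The antisense bars are 22.8 and 23.5 in Nef-sp+/- against 22.0 and 21.2 in Nef-sp-/-, and the order of the families is the same in every library.

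The proportions of the 5 larger families did not separate the genotypes. The Alu family, with B1 and its relatives, held a mean of 39.4% of the sense SINE reads in Nef-sp+/- and 39.4% in Nef-sp-/-. B2 elements held 23.6% and 23.8%, B4 elements 21.0% and 20.9%, MIR elements 12.2% and 12.3%, and ID elements 3.62% and 3.56%, in the same order of genotypes. For each of these 5 families the libraries of the genotypes overlapped. MamSINE1, the only member of the tRNA family, held 0.0616% and 0.0534%, and the family that is itself called SINE, with AmnSINE1 and LFSINE_Vert, held 0.00695% and 0.0102%. For these small families the libraries did not overlap, with the tRNA family lower and the SINE family higher in Nef-sp-/-, and this was not tested. Per library, MamSINE1 had 74 to 144 raw sense reads, LFSINE_Vert 8 to 14 and AmnSINE1 2 to 5. These shares count reads, and they were not divided by the number or length of the copies.

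No SINE element passed the test between genotypes on the sense strand. Of the 40 sense elements, 37 passed the expression filter and 0 had an adjusted p below 0.05 in the edgeR quasi-likelihood test, adjusted over all sense repeats by the Benjamini-Hochberg method, where 4 of 578 tested features, 0.692%, were called. The count was also 0 at an unadjusted p below 0.05, beside 29 of the 578 tested sense repeats. With DESeq2 it was 0 too, beside 3 of all sense repeats. The smallest adjusted p of a SINE was 0.998. The median log2 fold change of the 37 elements was -0.01, beside 0.01 over all sense repeats, and the median absolute log2 fold change was 0.0271, beside 0.0816. The median standard error (SE) was 0.0802 for the SINEs and 0.137 over all sense repeats, so these absolute values were not measured equally well.

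The sense log2 fold changes ran from -0.23 for MamSINE1 to 0.37 for LFSINE_Vert, with 14 above 0 and 23 below. With the library size taken over all annotation categories the split was 20 above and 17 below, and with 1 fit over all categories it was 29 and 8, so that the sign of these small differences depended on the scaling. For the 32 elements with a mean normalized count of at least 100, log2 fold changes lay between -0.07 and 0.07 and every 95% interval lay within 0.5 of 0 on the log2 scale, the lowest bound being -0.32 and the highest 0.30. Among the 37, the libraries of the genotypes did not overlap for 3 elements that were higher and 7 that were lower in Nef-sp-/-, which is 27.0%, beside 29.6% of all tested sense repeats. 

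On the antisense strand, 37 of the 39 elements passed the filter and 0 had an adjusted p below 0.05 in the same edgeR test, where 0% of the 553 tested features were called. The count was again 0 at an unadjusted p below 0.05, beside 13 of the 553 tested antisense repeats. With DESeq2 it was 0 too, beside 0 of all antisense repeats. The median log2 fold change was -0.01, beside 0.01 over all antisense repeats, and 14 values were above 0 and 23 below. This split became 30 and 7 with the library size over all categories and also with 1 fit over all categories. For the 33 elements with a mean normalized count of at least 100, log2 fold changes lay between -0.08 and 0.10 and all 95% intervals lay within 0.5 of 0. Libraries did not overlap for 5 higher and 6 lower elements, 29.7%, beside 24.2% of all tested antisense repeats.

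**Figure D3:**
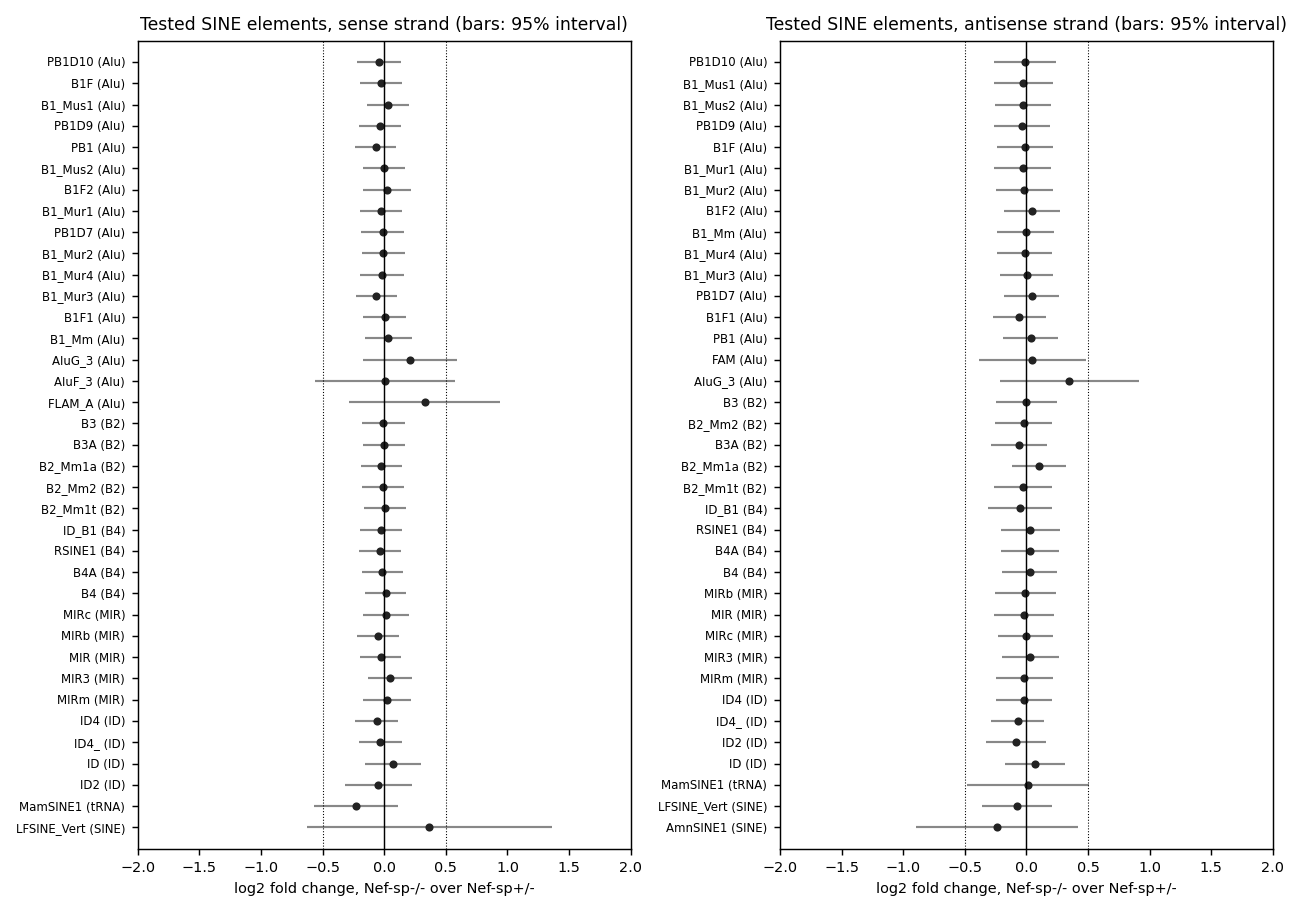
Log2 fold change between the genotypes (above 0, higher in Nef-sp-/-) with its 95% interval for the 37 tested SINE elements on each strand, grouped by family, with dotted lines at -0.5 and 0.5. The bars of every element cross 0, and those that reach past a dotted line belong to elements with mean normalized counts below 100.

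The most-read elements of the Alu family were PB1D10, B1F and B1_Mus1. PB1D10, a proto-B1 element, had sense counts of 12207 and 12275 in Nef-sp+/- against 12366 and 11395 in Nef-sp-/-, all normalized. The second Nef-sp-/- library was the lowest and the first the highest, so that the genotypes overlapped, with a log2 fold change of -0.04 ± 0.0815 (SE). B1F had 7222 and 7520 normalized counts against 7420 and 7072, and B1_Mus1 6043 and 5856 against 5985 and 6161. Neither separated the genotypes.

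PB1 and B1_Mur3 were the Alu family elements of higher level with the smallest sense p. PB1 had normalized sense counts of 4716 and 4784 in Nef-sp+/- against 4635 and 4417 in Nef-sp-/-, with a log2 fold change of -0.07 ± 0.0781 (SE). B1_Mur3 had 2653 and 2580 against 2508 and 2500, with a log2 fold change of -0.06 ± 0.0781 (SE). Both were lower in each Nef-sp-/- library, by less than their 95% intervals could separate from 0. On the antisense strand the log2 fold changes were 0.04 for PB1 and 0.001 for B1_Mur3.

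B1_Mm, named for the house mouse and picked here after its values were seen, was ordered by library rather than by genotype. Its normalized sense counts were 1923 and 1790 in Nef-sp+/- against 1783 and 2013 in Nef-sp-/-. The antisense counts were 2634 and 2363 in Nef-sp+/- against 2397 and 2578 in Nef-sp-/-. On both strands the first Nef-sp+/- library and the second Nef-sp-/- library were high and the other two low, and the log2 fold changes were 0.03 on the sense strand and -0.01 on the antisense strand.

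The Alu-like elements with few reads had wide intervals. AluG_3 had normalized sense counts of 64.2 and 68.0 in Nef-sp+/- against 82.3 and 71.6 in Nef-sp-/-, and normalized antisense counts of 30.0 and 35.2 against 43.7 and 40.4. It was higher in both Nef-sp-/- libraries on both strands, with log2 fold changes of 0.21 ± 0.177 and 0.35 ± 0.262 (SE) and unadjusted p of 0.255 and 0.203 in the edgeR test. FLAM_A, a free left Alu monomer, had 22.5 and 30.7 normalized sense counts against 28.6 and 39.7, with overlap and a log2 fold change of 0.33 ± 0.284 (SE). Without the second Nef-sp-/- library the value of FLAM_A was 0.06, and without the second Nef-sp+/- library it was 0.60. AluF_3 was at 0.005 on the log2 scale. FAM and the row called Alu did not pass the sense filter, with raw counts of 3, 2, 0 and 1 and of 1, 2, 4 and 4 in the order Nef-sp+/- then Nef-sp-/-, and a count of 0 allows up to 3 reads.

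Among the B2 elements, B3 had the most sense reads of any SINE, 8.68% of them. Its normalized sense counts were 14312 and 14288 in Nef-sp+/- against 14635 and 13825 in Nef-sp-/-, so that the Nef-sp-/- libraries lay on either side of the controls. The log2 fold change was -0.01 ± 0.0802 (SE). B3A had 7324 and 6897 against 7126 and 7070, and B2_Mm1a 6772 and 6496 against 6603 and 6462. B2_Mm1t, the B2 element most one-sided in strand, had 4986 and 4764 against 4894 and 4897, between the 2 controls in both Nef-sp-/- libraries.

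On the antisense strand B2_Mm1a was the B2 element with the largest difference. Its normalized antisense counts were 2534 and 2436 in Nef-sp+/- against 2675 and 2669 in Nef-sp-/-. Both Nef-sp-/- libraries were higher, with a log2 fold change of 0.10 ± 0.102 (SE), an unadjusted p of 0.324 and an adjusted p of 0.9997 in the edgeR quasi-likelihood test. 

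The B4 family was led by ID_B1, in which ID and B1 sequence are joined, and by RSINE1. ID_B1 had normalized sense counts of 13070 and 12946 in Nef-sp+/- against 13034 and 12498 in Nef-sp-/-. RSINE1 had 11660 and 11653 against 11592 and 11224, lower in both Nef-sp-/- libraries, with a log2 fold change of -0.03 ± 0.0786 (SE). B4A had 6243 and 6056 against 6072 and 6085. On the antisense strand ID_B1 had more reads than any other SINE, 10.9% of them, and a log2 fold change of -0.05, while the other 3 B4 elements were at 0.03 each.

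The ID family held few reads but both signs. ID4 had normalized sense counts of 3278 and 3310 in Nef-sp+/- against 3276 and 3035 in Nef-sp-/-, just without overlap, with a log2 fold change of -0.06 ± 0.0801 (SE). ID4_ had 1747 and 1810 against 1760 and 1721 on the sense strand, and on the antisense strand 2116 and 2156 against 2063 and 2006, where its log2 fold change was -0.07. The element called ID had 459 and 473 against 504 and 475, higher in both Nef-sp-/- libraries by a log2 fold change of 0.07 ± 0.106 (SE). Its normalized antisense counts were 523 and 504 against 578 and 498, with overlap and a log2 fold change of 0.07. ID2 had normalized antisense counts of 583 and 508 against 522 and 506, with a log2 fold change of -0.08.

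The MIR elements did not separate the genotypes clearly either. MIRc had normalized sense counts of 5955 and 6712 in Nef-sp+/- against 6663 and 6155 in Nef-sp-/-. Its 2 control libraries were further apart than any library of one genotype was from the nearest of the other. MIRb had 5917 and 6175 against 5822 and 5843, lower in both Nef-sp-/- libraries by -0.05 ± 0.0779 (SE) on the log2 scale, and MIR had 5148 and 5091 against 5084 and 4967, with -0.03.

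The elements of the tRNA and SINE families, which occur beyond rodents, had few reads and gave the extreme sense values. MamSINE1 had normalized sense counts of 98.0 and 105 in Nef-sp+/- against 88.3 and 86.0 in Nef-sp-/-. It was lower in both Nef-sp-/- libraries, with a log2 fold change of -0.23 ± 0.158 (SE) and an unadjusted p of 0.168 in the edgeR test, the smallest of the sense SINEs, whereas on the antisense strand it was at 0.01. LFSINE_Vert had 8, 14, 12 and 10 raw sense reads in the order Nef-sp+/- then Nef-sp-/-, and its log2 fold change of 0.37 had a 95% interval from -0.63 to 1.36. On the antisense strand it had 289.8 and 306 normalized counts against 308 and 258, with -0.08. AmnSINE1 had 22, 38, 18 and 22 raw antisense reads and a log2 fold change of -0.24, with an interval from -0.89 to 0.42.

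**Figure D4:**
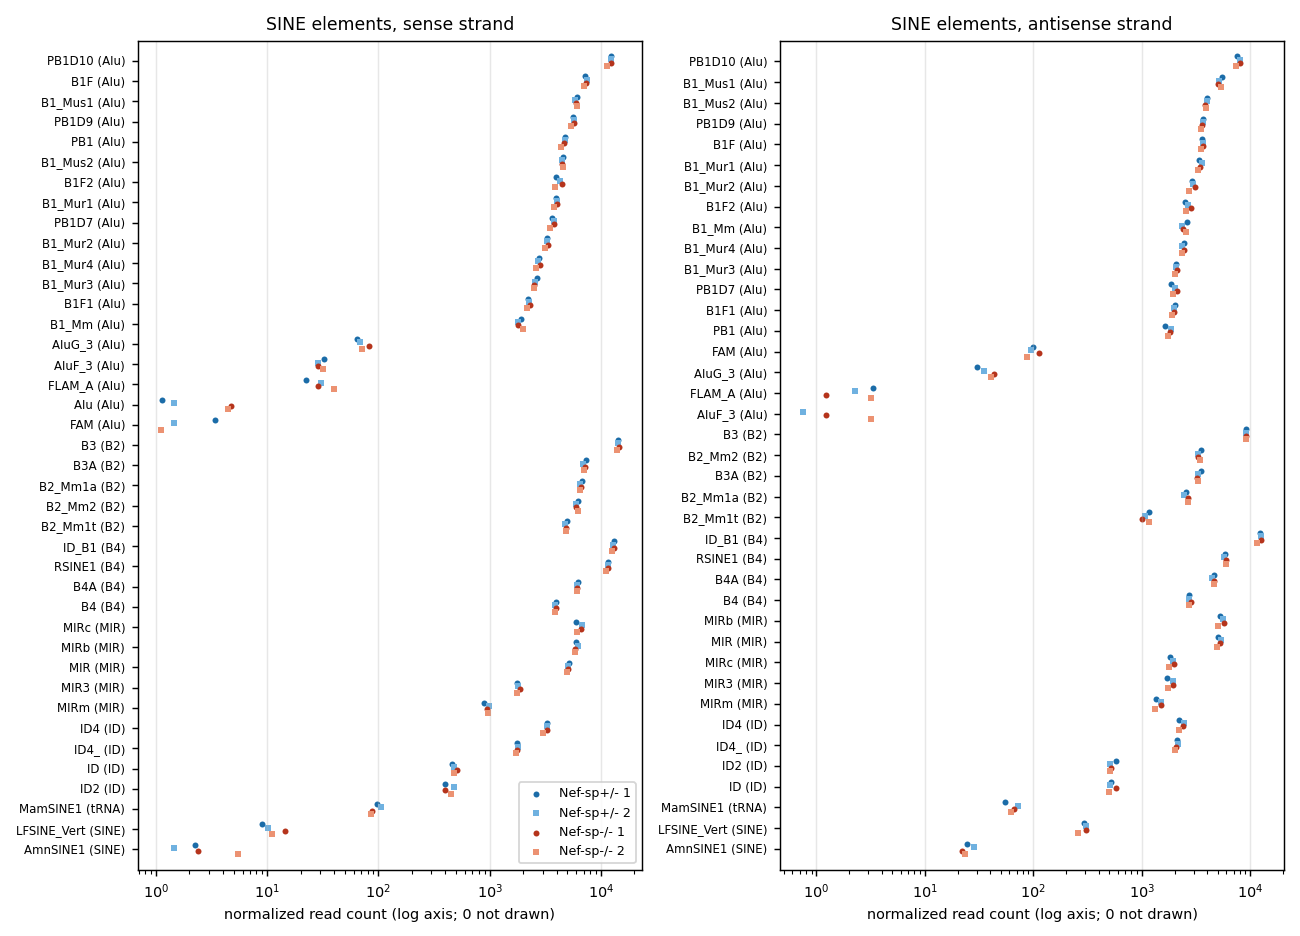
Normalized counts of each SINE element in each library on the sense strand (left) and the antisense strand (right), on log axes, ordered by family and level, with values of 0 not drawn. For elements above 100 the 4 libraries lie almost on top of each other. The widest spreads are among low elements such as AmnSINE1 and the row called Alu on the sense strand.

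The gap between the libraries of a genotype was on median larger than the absolute log2 fold change between genotypes. The median of the latter was 0.0271 for sense and 0.0305 for antisense elements. A gap between 2 single libraries tends to exceed a difference between means of 2 even without an effect, so this order decides nothing. Over the 37 sense elements, the median log2 ratio of the higher to the lower library was 0.0460 within Nef-sp+/- and 0.0822 within Nef-sp-/-. Over the antisense elements it was 0.0786 and 0.0979. The chi-square of the counts of the 2 libraries of a genotype over elements was between 3.84 and 5.30 per degree of freedom. Counting error alone gives about 1 where each read is counted once. The rule for reads that match several places is not given, so these values cannot tell whether a pair came from 1 library. The second Nef-sp-/- library was the lowest of the 4 for 18 of the 32 sense elements with a mean normalized count of at least 100 and for 18 of the 33 antisense elements. The first Nef-sp-/- library was the highest for 16 of these antisense elements. On each strand all elements of a library share 1 TMM scaling, so these counts are not independent. The order was not counted over all repeats or under other scalings.

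SINE reads came from both strands, with more on the sense strand. The sense share of SINE reads was 59.3% and 59.8% in Nef-sp+/- against 59.7% and 58.5% in Nef-sp-/-. The genotypes overlapped, with means of 59.5% ± 0.385 and 59.1% ± 0.860 (SD, n = 2 each) and p = 0.667 in the exact permutation test. For comparison, the mean sense shares in Nef-sp+/- were 56.7% for LINE, 62.6% for LTR and 56.2% for DNA elements. By family, in Nef-sp+/- and Nef-sp-/-, it was 66.8% and 66.4% for B2, 58.7% and 58.2% for Alu, 57.8% and 57.2% for B4, 56.4% and 56.0% for MIR and 52.1% and 51.6% for ID elements.

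The strand of the reads differed far more between elements than between libraries. Of the 33 elements with at least 1000 reads, 25 had more sense than antisense reads and 8 fewer. Their median sense share was 55.3%, and an element's sense share varied over the 4 libraries by a median of 2.0 percentage points and at most by 8.95, for ID2. Wilson intervals for single elements cover counting error only.

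B2_Mm1t had the highest sense share, 81.6% over all libraries (95% Wilson interval 81.1% to 82.1%). The libraries gave 80.8% and 82.2% in Nef-sp+/- against 83.2% and 80.1% in Nef-sp-/-. Its relative B2_Mm1a was at 71.9%, B2_Mm2 at 64.3% and B3 at 61.0%, so that the B2 elements all leaned to the sense strand. PB1 was at 72.5%, ahead of the other elements of the Alu family with 1000 reads.

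LFSINE_Vert had the lowest sense share, 3.64% (95% Wilson interval 2.72% to 4.85%). The libraries gave 2.97% and 3.32% in Nef-sp+/- against 4.51% and 3.95% in Nef-sp-/-, all far from the other elements with 1000 reads. The next lowest were MIRm at 40.04% and B1_Mm at 43.0%, both picked after their values were seen. Below 1000 reads the strand was still more one-sided for some. FAM, a fossil Alu monomer, was at 1.52%, AmnSINE1 at 9.91%, FLAM_A at 92.4% and AluF_3 at 96.0%.

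MIR elements split by subtype. MIRc had a sense share of 77.3%, with 76.3% and 78.0% in Nef-sp+/- against 77.5% and 76.9% in Nef-sp-/-. MIRb was at 52.4%, MIR at 49.6% and MIR3 at 49.5%. In every library MIRc was above these 3 relatives, by more than the range of any of them over the libraries.

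**Figure D5:**
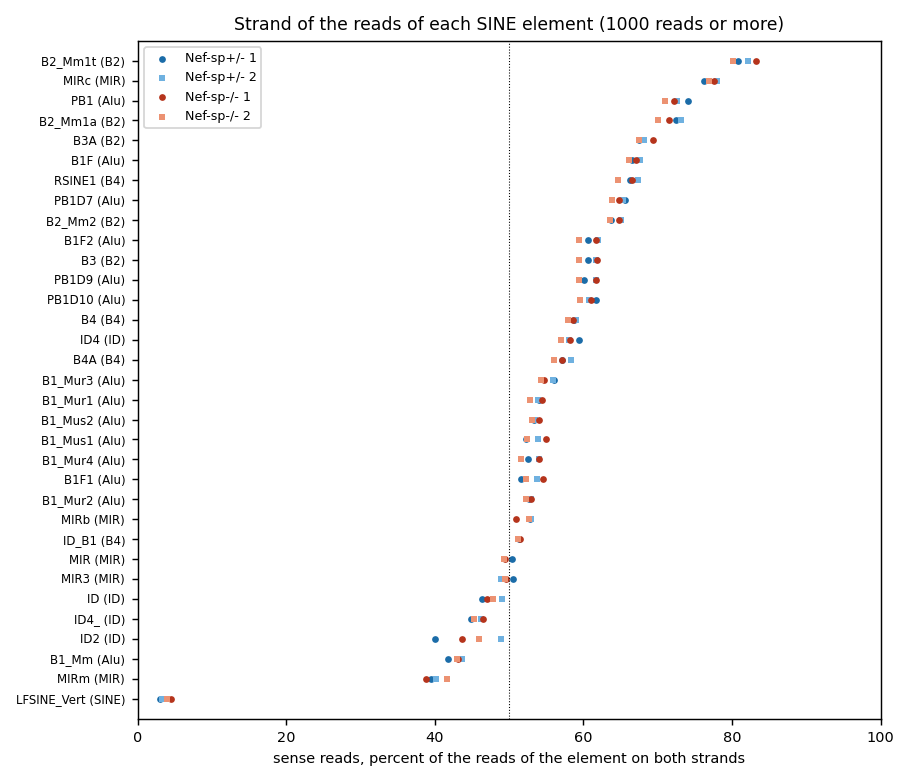
Sense reads as a percent of the reads on both strands for each of the 33 SINE elements with at least 1000 reads, 1 point per library, with a dotted line at 50%. The points of an element lie close together, from LFSINE_Vert near 3.64% to B2_Mm1t near 81.6%.

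Genes that transcribe, bind, edit or silence SINEs were examined in the exon reads. Of 40 genes listed, 39 were found and tested, and 0 had an adjusted p below 0.05 in the edgeR quasi-likelihood test, where 1 of 10728 genes, 0.00932%, was called. At an unadjusted p below 0.05 there were 2, Adar and Dhx9, beside 515 of all genes. With DESeq2 the adjusted count was 0, beside 2 of all genes. The median log2 fold change of the list was -0.03, beside -0.0002 over all genes. Without the first Nef-sp+/- library this median was 0.003 and without the second -0.07, and the number of all genes called rose from 1 to 39 and 185, while no gene of the list was called. RNA polymerase III subunits were evenly divided, 6 above and 6 below 0, from -0.30 for Polr3d to 0.11 for Polr3a. Of the TFIIIC subunits, which bind the B box, 1 of 6 was above 0, and of the TFIIIB subunits 1 of 4, with medians of -0.05 and -0.03.

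Adar, whose product edits adenosines in double-stranded RNA such as that of inverted SINEs, had the lowest log2 fold change of the list but few reads. It had 24 and 34 raw reads in Nef-sp+/- against 10 and 11 in Nef-sp-/-, or 27.6 and 23.9 against 11.5 and 13.0 normalized counts. Both Nef-sp-/- libraries were lower, with a log2 fold change of -1.04 ± 0.33 (SE), an unadjusted p of 0.0075 and an adjusted p of 0.954 in the edgeR test. Dhx9, a helicase that unwinds paired RNA, had 1204 and 1227 normalized counts against 1004 and 1158, with a log2 fold change of -0.17 ± 0.0762 (SE). Trim28, a corepressor at retroelements, had 10114 and 9806 against 9430 and 8731, with -0.13, Polr3d 73.7 and 68.3 against 56.6 and 58.0, with -0.30, and Adarb1 132 and 139 against 107 and 128, with -0.22. These 5 genes were named for their small p. All 5 were lower in both Nef-sp-/- libraries, and none passed the adjusted threshold. Over the whole list, libraries of the genotypes did not overlap for 7 lower and 3 higher genes, 25.6%, beside 34.5% of all tested genes. The 3 higher ones were Gtf3c4, Adnp and Polr3g, with log2 fold changes of 0.08, 0.06 and 0.08.

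Of the RNA-binding proteins on the list, Srp9 and Srp14 overlapped between genotypes, whereas Dhx9 did not. Srp9, which with Srp14 binds the Alu fold of 7SL and B1 RNA, had 3976 and 3966 normalized counts in Nef-sp+/- against 3876 and 4122 in Nef-sp-/-. Srp14 had 2965 and 2762 against 2818 and 2945. Their log2 fold changes were both 0.01, with 95% intervals from -0.12 to 0.14 for Srp9 and from -0.13 to 0.15 for Srp14. Ssb, the La protein that binds the ends of RNA polymerase III transcripts, was at -0.02, and Maf1, the repressor of the polymerase, at -0.05.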

How the data were processed

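The 4 libraries hold total testicular RNA, 2 for each genotype. Genotypes and replicate numbers were taken from the labels, where the control is Nef-sp+/-. The authors removed adapters, mapped the reads with in-house tools (genome build mm9), discarded reads with a mismatch and deposited raw counts per feature, annotation category and strand. Tool versions and the rule for reads that match several places are not given in the sources used here. The authors also deposited a mean normalized signal, a log2 fold change and a p-value of DESeq2 per feature, none of which was used.

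Counts of each annotation category were fitted separately by the quasi-likelihood test of edgeR 4.0.16 in R 4.3.3, after TMM normalization and the expression filter of edgeR (minimum count 10), without covariates. P-values were adjusted by the Benjamini-Hochberg method over all tested features of the category, at a threshold of 0.05. For shares of reads the test was an exact permutation over libraries, two-sided. The scripts were tested on simulated data. With 20659865 to 34442517 reads per library, the median SE of elements with at least 100 normalized counts was 0.0792 on the log2 scale for sense and 0.107 for antisense reads.

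Named are the 3 most-read elements of each family, on each strand the 5 with the smallest p and the 3 with the largest log2 fold change in each direction, the extremes of the sense share among elements with at least 1000 reads, and the 5 listed genes with the smallest p. Others are given as examples of their family or list, chosen after their values were seen. The members, lists, tests and rules were chosen with earlier results of these data known. Markers of 29 genes came from textbook knowledge. Bc1 was located in mm9 by exact match of its RefSeq promoter window, and its windows were matched to chromosomes 1 to 19, X and Y. Alternatives were other size factors, filters and tools (DESeq2 1.42.0), joint fits, other denominators, a replicate block and each library left out.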

Additional observations from a re-analysis of the deposited data

How the results depend on the processing

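The number of SINE elements called was 0 on each strand, and 0 of the listed genes were called, with DESeq2 with and without its prior, its size factors in edgeR, other library sizes, other filters, joint fits and each library left out. The labels tie the replicate numbers to no shared litter or batch, so no pairing was assumed. With the replicate block the counts were also 0, 0 and 0. The deviations of same-numbered libraries correlated at -0.217 in sense repeats, -0.307 in antisense repeats and -0.0909 in gene exons. A block with crossed numbers, added after seeing this, also called 0 SINE elements on each strand and 0 listed genes. Over all features it called 14 sense repeats, 7 antisense repeats and 99 genes, beside 4, 0 and 1 in the main fit. For the 28 log2 fold changes of SINE elements named by rule, none of them called, 25 of 390 alternative values differed in sign. Of these, 9 were in 1 fit over all categories. The other elements, BC1 and the genes were not part of this count. With 1 library left out, low elements moved most: FLAM_A sense ranged from 0.06 to 0.60, LFSINE_Vert sense from 0.17 to 0.54, and AluG_3 sense from 0.11 to 0.30 on the log2 scale.

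The shares were more sensitive to their denominator. Without structural RNA and satellite rows the difference in the SINE share, Nef-sp-/- minus Nef-sp+/-, was -0.653 percentage points for sense repeats and -0.670 for antisense repeats, and as a share of all reads it was 0.00869 for antisense reads. The sense share differed by -1.19 points as a median over elements, against -0.468 as a sum. Over both strands the family called SINE differed by -0.00288 and the tRNA family by -0.00411 points, against 0.00323 and -0.00818 on the sense strand. The cause was not tested. With 1 library left out, the sense difference ranged from -0.0500 to 0.196 points, the antisense difference from -2.01 to -1.20, and that of the sense share from -1.08 to 0.140. With 2 libraries per genotype, differences inside the printed intervals remain possible, and the depth limits elements below 100 normalized counts. The intervals are not adjusted for the number of features, so larger differences can also go uncalled. The intervals of Adar, from -1.78 to -0.31, and of Dhx9, from -0.34 to -0.002, left out 0. Yet the adjusted p in the edgeR test was 0.954 for both.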
